A study of Mus musculus with 4 samples.

Results

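The genes described here encode molecules by which white blood cells attach to the vessel wall: Vcam1, Icam1, Sele and Selp on the vessel side, and Selplg, Itgal, Itgam, Itgb2 and Itga4 on the leukocyte side. They were chosen by name, as every probe set paired with exactly 1 of these 9 symbols, which gave 18 probe sets of the 34945 with 1 symbol on the Affymetrix array. Aortas of mice lacking Smad4 in smooth muscle cells (Smad4-KO) were set against those of wild type littermates (WT), both aged 6 weeks and given no treatment that the labels name. Smad4 is the common partner of receptor-activated Smads in TGF-beta and BMP signalling. Each array received 400 ng of RNA from 3 to 5 pooled vessels, and there were 2 arrays per genotype, labelled biological replicates. The sources used here do not give the promoter that drove the deletion, the part of Smad4 removed or the strain.

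Leukocytes leave the blood in steps. Selectins on activated endothelium (E-selectin from Sele, P-selectin from Selp, which platelets also store) bind the glycoprotein ligand encoded by Selplg and let the cells roll. Chemokine signals then activate leukocyte integrins, which hold the cells by binding Icam1 and Vcam1 products on the wall. Itgb2 encodes the shared beta chain of the leukocyte integrins, which pairs with the alpha chains of Itgal and Itgam, whereas the alpha chain of Itga4 pairs with other beta chains and binds Vcam1 and fibronectin. Vcam1 and Icam1 can also be made by smooth muscle cells and macrophages.

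Sequences upstream of the start site were found in the RefSeq-derived promoter table (build GRCm38.p6) for 5 of the 9 genes: Sele, Selp, Itga4, Itgam and Icam1. The windows of 250 bases before the start site of Itgam and Sele are shown because they alone, of the 5, hold a motif searched. Capitals mark matches on either strand to GAGGAA and to TATAAA, the TATA box. GAGGAA is the core of sites of ETS family factors, such as PU.1 of myeloid cells, together with a purine-rich flank. The core without this flank was not searched. The matches do not overlap each other. The Itgam window lies at chr7:128062390-128062639 on the plus strand and the Sele window at chr1:164047984-164048233 on the plus strand.
Itgam: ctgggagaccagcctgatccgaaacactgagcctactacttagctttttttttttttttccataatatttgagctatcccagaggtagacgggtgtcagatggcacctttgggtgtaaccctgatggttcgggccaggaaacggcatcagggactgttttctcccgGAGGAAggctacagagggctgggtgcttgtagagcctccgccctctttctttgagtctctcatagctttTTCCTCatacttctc
Sele: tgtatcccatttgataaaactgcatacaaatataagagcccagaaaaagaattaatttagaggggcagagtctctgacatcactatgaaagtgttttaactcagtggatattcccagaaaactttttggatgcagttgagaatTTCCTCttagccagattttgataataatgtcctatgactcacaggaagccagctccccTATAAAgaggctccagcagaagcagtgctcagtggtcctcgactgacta
GAGGAA stood in the Itgam window 84 bases before the start site and, on the other strand, 15 bases before it. In the Sele window it stood 107 bases before the start on the other strand, and TATAAA 49 bases before it. Of 32851 windows of the same length, 23.3% held GAGGAA, 12.4% held TATAAA and 7.25% held the kappaB consensus. None of the windows of the 5 genes held the kappaB consensus, searched on either strand only as GGGRNNYYCC (R is A or G, Y is C or T, N any base). Variant kappaB sites that depart from this pattern were not searched, so their presence is not known from this count. The windows of Selp, Itga4 and Icam1 held none of the 3 motifs. These are matches of letters, and nothing measured here bears on binding.

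All 9 genes read higher on both Smad4-KO arrays than on both WT arrays at their brightest probe set. The difference passed the test for Itgb2 and Itgal, both of the leukocyte side. It did not pass for 6 others, and Sele was too faint to enter the test. Genes were compared with limma on log2 signal, using each gene's brightest probe set on average, and genes with a mean log2 signal under 5.64 were left out. P-values were adjusted by Benjamini-Hochberg across the 13645 genes, called at 0.05, and a value after ± is the standard error of the difference from that fit (2 arrays against 2). Of the genes tested, 4.92% passed as higher in Smad4-KO, and 25.9% had both Smad4-KO arrays above both WT arrays. Their median log2 difference was -0.01. Itgam entered the test only through its Smad4-KO level, since its WT mean of 5.64 lay just under the limit, so a count over the tested members is a description and no support. In whole vessels, more cells of a type and more RNA per cell cannot be told apart.

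**Figure D1:**
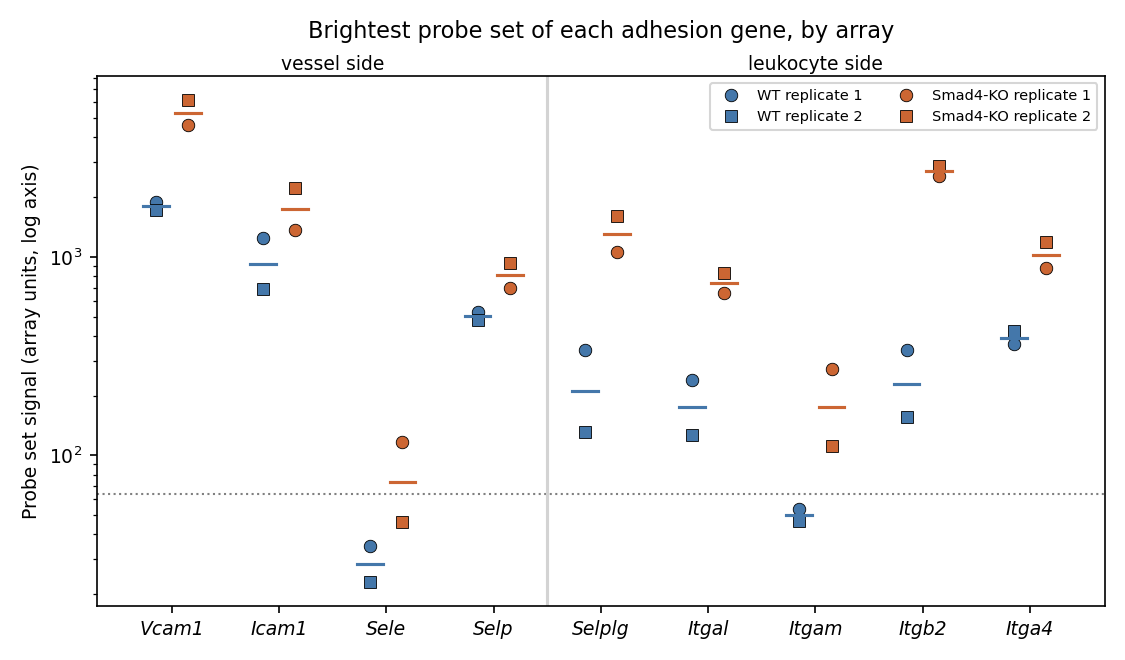
Signal of the brightest probe set of each gene on every array, on a log axis; horizontal bars are geometric means of 2 arrays and the dotted line is a signal of 64. For all 9 genes the Smad4-KO arrays (orange) lie above the WT arrays (blue), with a wide gap for Itgb2 (338 to 2546) and a narrow one for Icam1 (1244 to 1372).

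The arrays also differed in measures that the labels do not describe. The array medians were 111 and 132 in WT against 133 and 137 in Smad4-KO. For the Dap spike, added before labelling, the 3' to 5' ratio was 10.02 (WT) and 14.1 (Smad4-KO) in 1 pair of arrays, WT replicate 1 with Smad4-KO replicate 2, and 2.96 (WT) and 3.62 (Smad4-KO) in the other pair. This forms pairs that each hold an array of both genotypes. They are called labelling pairs after this ratio alone, and the labels name no such batch. Differences within these labelling pairs are given below. Xist, the X inactivation transcript made in females, read 15192 and 90.0 in WT against 6223 and 135 in Smad4-KO, so it split the arrays by replicate number. Smad4 itself had signals of 4394 and 3819 in WT against 2676 and 3580 in Smad4-KO at its brightest probe set, which differ by -0.40 ± 0.32 on the log2 scale (limma; adjusted p = 0.626). Of its other probe sets, 1 was lower on both Smad4-KO arrays (1213 and 1778 in WT against 658 and 942 in Smad4-KO, -0.90 ± 0.40, adjusted p = 0.432 in the fit of probe sets) and 1 overlapped (-0.43). Smooth muscle markers were present on every array, with summed signals of 148558 and 177373 in WT against 65557 and 73391 in Smad4-KO, and 5 of 10 fell (0 without WT replicate 1). Nerve cell markers summed to 2129 and 1908 in WT against 40446 and 30176 in Smad4-KO, and all 10 tested rose. Fibroblast (8 tested) and mast cell markers (6 tested) included 0 past the threshold in limma and 0 at an unadjusted p under 0.05. The part of these shifts in the adhesion results was not tested.

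Itgb2, the shared beta chain of the leukocyte integrins, showed the largest difference of the members in the fit. It had signals of 338 and 156 in WT against 2546 and 2868 in Smad4-KO. The genotypes lay far apart, and WT replicate 1 read above WT replicate 2 by a log2 gap of 1.12. Itgb2 rose 11.8-fold in Smad4-KO, a log2 difference of 3.56 ± 0.45 (95% interval 2.44 to 4.68, limma, adjusted p = 0.0182). Within the labelling pairs the difference was 3.08 (WT replicate 1 with Smad4-KO replicate 2) and 4.03 (WT replicate 2 with Smad4-KO replicate 1). The call was lost with the labelling pairs as a block (adjusted p = 0.0559), with no filter on faint genes (adjusted p = 0.0821) and without WT replicate 2 (log2 difference 3.00, adjusted p = 0.0712), over 16 alternatives in all (adjusted p from 0.00123 to 0.0821).

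Itgal encodes the alpha chain that forms, with the Itgb2 product, the integrin of lymphocytes and other leukocytes that binds Icam1. Its brightest probe set read 239 and 127 in WT against 658 and 826 in Smad4-KO. No WT array reached either Smad4-KO array. Itgal rose 4.23-fold (2.08 ± 0.41, 95% interval 1.05 to 3.11, limma, adjusted p = 0.0487), close to the threshold. Within the labelling pairs, in the same order, it was 1.79 and 2.37. Of 16 alternatives (adjusted p between 0.0188 and 0.217), 11 ended the call, including the labelling pair block (0.0710), quantile normalization (0.0827) and leaving out any 1 of the 4 arrays (0.0740 without WT replicate 1, 0.217 without WT replicate 2, 0.0753 without Smad4-KO replicate 1 and 0.108 without Smad4-KO replicate 2). The second Itgal probe set was faint, with 28.1 and 1.96 in WT against 97.7 and 43.7 in Smad4-KO, and the genotypes did not overlap there either. With the mean of both probe sets the difference was 2.61 and did not pass (adjusted p = 0.171).

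Itgam, whose alpha chain pairs with the Itgb2 product on macrophages, monocytes and neutrophils, read 53.5 and 46.6 in WT against 273 and 112 in Smad4-KO. The genotypes did not overlap, but replicate 1 of Smad4-KO read above replicate 2 by a log2 gap of 1.29. The difference of 1.81 ± 0.49 did not pass (95% interval 0.58 to 3.03, adjusted p = 0.110). With WT signals raised to 64 the ratio was at least 2.73-fold. It passed without Smad4-KO replicate 2 (2.45, adjusted p = 0.0315) and with the replicate number as a block (adjusted p = 0.0329), and under none of the 13 other alternatives that could test it (adjusted p up to 0.381).

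Itga4, the alpha chain that binds Vcam1, had 5 probe sets of unlike brightness. The brightest (1436037_at) read 365 and 421 in WT against 874 and 1185 in Smad4-KO, differing by 1.38 ± 0.32 on the log2 scale without passing (95% interval 0.57 to 2.19, adjusted p = 0.0765). Here the WT arrays lay within a log2 gap of 0.21 of each other and both Smad4-KO arrays stood above them. Probe set 1421194_at (51.6 and 41.3 in WT against 97.0 and 112 in Smad4-KO) and the faint 1450155_at (2.18 and 4.51 in WT against 24.6 and 52.3 in Smad4-KO) also separated the genotypes. Probe set 1456498_at read 35.0 and 68.5 in WT against 67.5 and 205 in Smad4-KO and did not separate them. Probe set 1427615_at, also faint, read 8.25 and 0.677 in WT against 19.0 and 0.658 in Smad4-KO and showed no order by genotype.

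Selplg encodes the main leukocyte ligand of the selectins. It had 1 probe set, with signals of 339 and 130 in WT against 1059 and 1610 in Smad4-KO. All Smad4-KO values exceeded all WT values, and the WT arrays differed by a log2 gap of 1.38, the widest WT gap among the brightest probe sets of the members. The log2 difference of 2.64 ± 0.54 (95% interval 1.29 to 3.98) missed the threshold (adjusted p = 0.0532). It passed under 4 of 16 alternatives (adjusted p from 0.0109 to 0.184), the replicate block among them.

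**Figure D2:**
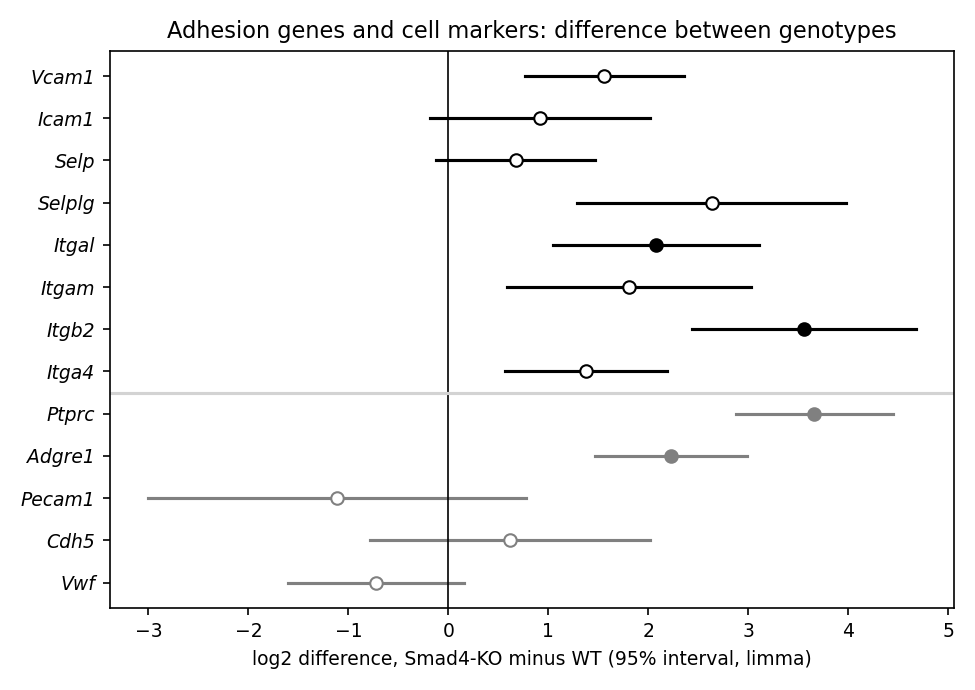
Log2 difference between genotypes with its 95% interval from limma, for the 8 adhesion genes tested (black) and 5 cell markers (grey); filled points passed an adjusted p of 0.05. Itgb2 and Itgal are filled, the intervals of Icam1 and Selp cross 0, and Ptprc and Adgre1 are filled while the 3 endothelial markers cross 0.

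On the vessel side, Vcam1 encodes the ligand of Itga4 integrins. Its brightest probe set (1448162_at) gave 1882 and 1727 in WT against 4592 and 6176 in Smad4-KO. The WT arrays almost coincided, with a log2 gap of 0.12, and both Smad4-KO arrays were well above them. The log2 difference of 1.56 ± 0.32 (95% interval 0.77 to 2.36) narrowly missed the threshold (adjusted p = 0.0529). It passed under 6 of 16 alternatives, including the replicate block and cyclic loess (adjusted p from 0.0296 to 0.263). The other Vcam1 probe sets were dimmer: 1451314_a_at read 278 and 409 in WT against 632 and 554 in Smad4-KO, and 1415989_at read 276 and 494 in WT against 925 and 376 in Smad4-KO. The former separated the genotypes and the latter did not, and the mean of the 3 probe sets gave a log2 difference of 1.02 (adjusted p = 0.236).

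Icam1, the ligand of the Itgb2 integrins, read 1244 and 687 in WT against 1372 and 2214 in Smad4-KO. WT replicate 1 and Smad4-KO replicate 1 lay close together, with a log2 difference of 0.14 between them, against 1.69 between the arrays numbered 2. The overall difference of 0.92 ± 0.44 did not pass (95% interval -0.19 to 2.02, adjusted p = 0.357), nor under any of its 16 alternatives.

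Selp, the P-selectin gene, gave unlike answers at its 3 probe sets. The brightest (1420558_at) read 527 and 483 in WT against 696 and 933 in Smad4-KO, differing by 0.68 ± 0.32 on the log2 scale without passing (95% interval -0.12 to 1.47, adjusted p = 0.345). Probe set 1440173_x_at read 368 and 297 in WT against 126 and 648 in Smad4-KO, and 1449906_at read 272 and 316 in WT against 189 and 448 in Smad4-KO. At both of these Smad4-KO replicate 1 lay below both WT arrays and Smad4-KO replicate 2 above them. Platelet markers, which bear on Selp, included 0 of 6 tested past the threshold in limma (4 had an unadjusted p under 0.05) and summed to 2844 and 1861 in WT against 8140 and 5754 in Smad4-KO. Pf4, a platelet chemokine, read 1676 and 1100 in WT against 3368 and 3531 in Smad4-KO (log2 difference 1.34 ± 0.34, adjusted p = 0.0935). Their part in the Selp values was not tested.

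Within the labelling pairs, in the order given for Itgb2, the members that did not pass also differed in 1 direction at their brightest probe sets. The log2 differences were 1.71 and 1.41 for Vcam1, 0.83 and 0.998 for Icam1 and 0.83 and 0.53 for Selp. On the leukocyte side they were 2.25 and 3.02 for Selplg, 1.06 and 2.55 for Itgam and 1.70 and 1.05 for Itga4.

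Sele, the E-selectin gene, was faint, with 35.0 and 23.1 in WT against 116 and 46.3 in Smad4-KO. Only Smad4-KO replicate 1 exceeded a signal of 64. It fell under the limit of the gene test. In a test of every probe set, where the limit is a mean log2 signal of 5.25, it entered only through its Smad4-KO level (mean 6.20, against 4.83 in WT), and its log2 difference of 1.37 ± 0.56 did not pass (adjusted p = 0.389).

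That second fit took each probe set by itself, with those under a mean log2 signal of 5.25 left out, and adjusted over 26209 probe sets, of which 0.702% passed as higher in Smad4-KO. Of the 18 adhesion probe sets 15 were tested and 0 passed in limma, with the lowest adjusted p that of Itgb2 (0.0583). An unadjusted p under 0.05 was seen for 7 of them, and for 3692 of the 26209 probe sets. The fit made fewer calls over all features than the gene fit (205 against 861). Both Smad4-KO arrays lay above both WT arrays for 11 of the 15 tested adhesion probe sets, and for 22.0% of all probe sets tested. Since Sele is among the 11, that count too is a description and no support. The adhesion probe sets with a negative mean difference were the Selp probe sets 1440173_x_at (-0.21) and 1449906_at (-0.01).

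**Figure D3:**
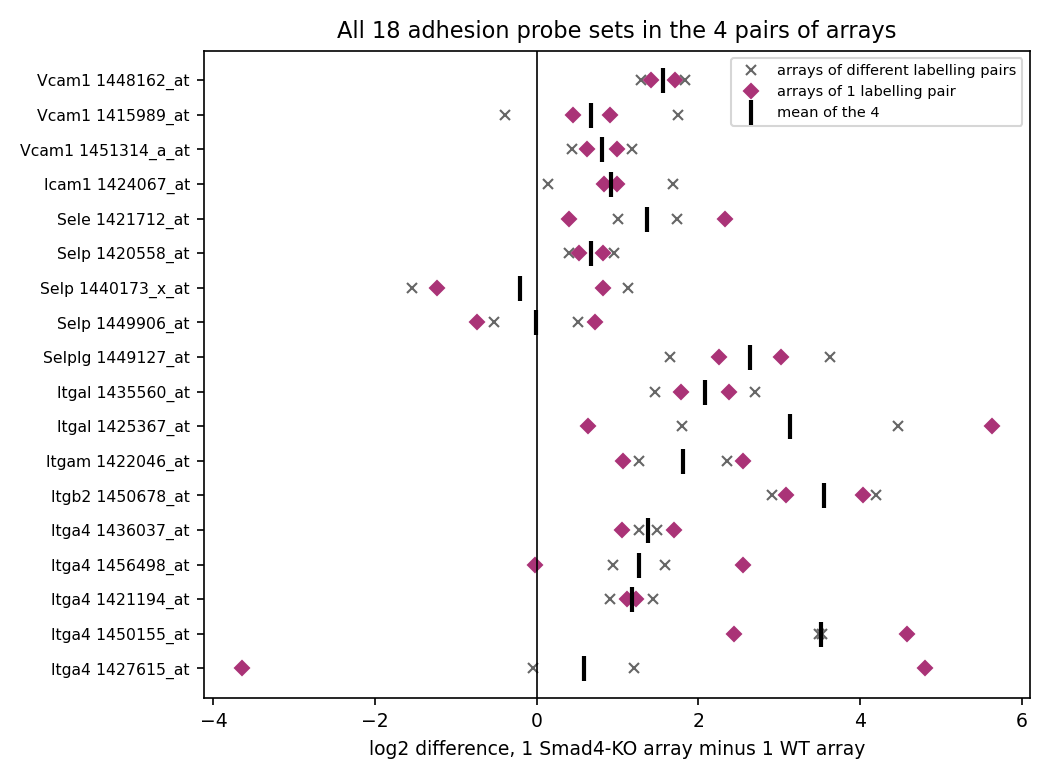
Log2 difference of each of the 18 probe sets in the 4 possible pairs of 1 Smad4-KO and 1 WT array; diamonds are arrays of the same labelling pair, crosses arrays of different pairs, and the bar their mean. Itgb2 stays between 2.91 and 4.20 in all pairs, whereas the 2 dimmer Selp probe sets change sign and the Itga4 probe set 1427615_at runs from -3.65 to 4.81.

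The leukocyte-side values stood beside a change in markers of white blood cells as a whole. Of 8 general leukocyte markers 6 rose, with a median log2 difference of 3.25, and their summed signals were 5555 and 3521 in WT against 29926 and 49573 in Smad4-KO. Ptprc, the surface phosphatase of leukocytes, read 820 and 747 in WT against 8667 and 11348 in Smad4-KO (3.66 ± 0.31, adjusted p = 0.0125). The Itgb2 difference of 3.56 lay next to it and that of Itga4 (1.38) well below; a difference between genes in their change was not tested. Of 12 macrophage markers 7 rose (summed signals 19138 and 14017 in WT against 57377 and 76626 in Smad4-KO), among them Adgre1, the gene of the F4/80 antigen (2.23 ± 0.30, adjusted p = 0.0206). The other direction was seen for Cd163 (-0.56) and Mertk (-0.36), receptors of tissue macrophages that did not pass and were named after their values were seen. Without WT replicate 1 only 1 macrophage marker and 3 general leukocyte markers passed, Adgre1 not among them (adjusted p = 0.0764), and with the mean of probe sets 2 general leukocyte markers passed and Ptprc did not (3.14, adjusted p = 0.0868). Of 7 neutrophil markers tested 5 rose, with summed signals of 1653 and 537 in WT against 14598 and 18839 in Smad4-KO. Of these 7, Csf3r, which passed, and Camp, which did not, had WT means under the limit (signals of 46.9 and 24.7) and were tested only through their Smad4-KO levels. As with Selplg, Itgal and Itgb2, WT replicate 1 read above WT replicate 2 in all 3 lists. The part of these cells in the adhesion values was not tested.

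The endothelial markers showed no common direction. Of 12 tested, 0 passed in limma and 1 had an unadjusted p under 0.05, the growth factor receptor Kdr (1.40 ± 0.38, adjusted p = 0.113), named after its values were seen. Here 7 differences were positive and 5 negative, with a median of 0.20, which became -0.18 without WT replicate 2, -0.16 without Smad4-KO replicate 1 and -0.062 with the mean of probe sets. Their summed signals were 22334 and 19042 in WT against 23212 and 12732 in Smad4-KO. Pecam1, an endothelial junction protein, read 2296 and 3699 in WT against 2890 and 628 in Smad4-KO. Vwf, the clotting factor carrier of endothelium, read 3846 and 2488 in WT against 2022 and 1742 in Smad4-KO (-0.72 ± 0.35, adjusted p = 0.365). Cdh5, the cadherin of endothelial junctions, read 853 and 529 in WT against 1688 and 629 in Smad4-KO (0.62 ± 0.56, adjusted p = 0.682), and turned negative without Smad4-KO replicate 1 (-0.094) and with the mean of its probe sets (-0.23). Smad4-KO replicate 2, with the lowest endothelial sum, had the highest signals of Vcam1, Icam1 and Selp at their brightest probe sets. Sele was instead highest on Smad4-KO replicate 1, as was Cdh5.

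The other genes of the adhesion cascade are given by role. The calls in these lists and in the marker lists were all lost with the labelling pairs as a block, with no filter on faint genes and without WT replicate 2, settings under which limma called 0 of all genes tested (2658, 2788 and 1791 at an unadjusted p under 0.05). Of 17 tested vessel-side and junctional molecules outside the 9 genes, 0 passed in limma and 3 had an unadjusted p under 0.05, and their median difference was -0.40. Aoc3, the vascular adhesion amine oxidase, had the lowest p: it read 6384 and 6287 in WT against 2549 and 2864 in Smad4-KO (-1.23 ± 0.29, adjusted p = 0.0789). Stab1, a scavenger receptor of endothelium and macrophages, differed the other way (0.94 ± 0.34, adjusted p = 0.212).

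Among 10 other leukocyte integrins and adhesion receptors tested, 2 rose and 0 fell, with a median of 1.18. Itgax, another alpha chain that pairs with the Itgb2 product on myeloid cells, read 88.0 and 83.6 in WT against 629 and 1048 in Smad4-KO and rose 9.46-fold (3.24 ± 0.37, adjusted p = 0.0157). Cd84, a receptor of the SLAM family, rose 10.2-fold (3.35 ± 0.34, adjusted p = 0.0136). Itgax also did not pass without WT replicate 1 (adjusted p = 0.0597), nor Cd84 with the mean of its probe sets (2.22, adjusted p = 0.0696). Itga9, an integrin alpha chain related to that of Itga4, had the opposite direction and is named after its values were seen. It read 1641 and 3545 in WT against 224 and 531 in Smad4-KO and narrowly missed the threshold (-2.81 ± 0.58, adjusted p = 0.0555). It passed as lower with the replicate block, median centring, the filter at the 50 percent point, trend and robust variances, an adjusted p of 0.10 and without Smad4-KO replicate 2.

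Of 18 genes that relay or regulate the inside-out activation of leukocyte integrins, 8 rose and 0 fell, with a median of 1.44. They include genes that limit it, such as Cytip, so the count gives no direction of activation. Lcp2, an adaptor of immune receptor signalling, rose at least 12.1-fold when fainter signals were set to 64 (4.24 ± 0.65, adjusted p = 0.0263). Cytip, a cytohesin-binding protein of leukocytes, rose 14.1-fold (3.82 ± 0.46, adjusted p = 0.0175). Dock2, an activator of Rac in leukocytes, rose at least 8.85-fold with the same floor (3.23 ± 0.58, adjusted p = 0.0385), and Prkcb, a protein kinase C, 7.70-fold (2.95 ± 0.42, adjusted p = 0.0223). Tln1, which encodes talin, and Rap1a, a small GTPase, did not pass (-0.70 ± 0.29 and 0.11 ± 0.30). Nor did Rasgrp2, the most negative of the list (-0.94 ± 0.34, limma, adjusted p = 0.209). Tln1, Rap1a and Rasgrp2 were named after their values were seen. Dock2 also did not pass without either Smad4-KO array (adjusted p = 0.0617 and 0.0787), with quantile normalization (0.0604) or with the mean of its probe sets (0.0780). The 8 calls became 4 without WT replicate 1 and 5 without Smad4-KO replicate 2.

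Of 10 genes tested that act in the induction of endothelial adhesion genes, 3 rose and 0 fell, with a median of 0.88. The list mixes a cytokine, receptors and transcription factors with Nfkbia and Tnfaip3, whose products restrain the induction. The cytokine genes Tnf and Il1a were too faint to enter the test. Il1b, a cytokine that induces selectins and Vcam1 in endothelium, read 41.8 and 122 in WT against 1260 and 1942 in Smad4-KO (4.45 ± 0.58, adjusted p = 0.0194, at least 17.7-fold with the floor of 64). Tnfrsf1b, a TNF receptor, rose 4.76-fold (2.25 ± 0.35, adjusted p = 0.0276) and Irf1, an interferon-induced transcription factor, 3.09-fold (1.63 ± 0.29, adjusted p = 0.0386). Tnfrsf1b passed neither with the mean of its probe sets (0.61, adjusted p = 0.626) nor when WT replicate 1 (adjusted p = 0.112) was left out, nor without Smad4-KO replicate 2 (0.0515). Irf1 did not pass without any 1 of the 4 arrays (adjusted p from 0.0800 to 0.224), with median centring (0.0734) or with the mean of probe sets (0.0615). The 3 calls became 1 without WT replicate 1, without Smad4-KO replicate 2 or with the mean of probe sets.

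The 10 tested enzymes that build selectin ligands gave 0 calls in limma (2 had an unadjusted p under 0.05) and a median of 0.22. Fut4, a fucosyltransferase of leukocytes, had the lowest p (68.5 and 60.0 in WT against 155 and 170 in Smad4-KO; 1.34 ± 0.30, adjusted p = 0.0648), and Tpst1, a tyrosine sulfotransferase, read lower in Smad4-KO (-1.04 ± 0.37, adjusted p = 0.209). The list of matrix ligands and integrin partners had 4 genes tested: Fn1 (fibronectin), Itgb1 (a beta chain) and the fibrinogen chains Fga and Fgg. Of these 0 passed in limma, and 0 had an unadjusted p under 0.05. Fgg had a WT mean under the limit (a signal of 31.4) and was tested only through its Smad4-KO level. Fibrinogen chains, which the liver makes and the Itgam integrin binds, stood apart on 1 array: Fga read 13108 on Smad4-KO replicate 1 and 36.1 to 102 on the others, and Fgg 18366 against 20.4 to 52.4. Fga turned negative without that array (-0.29). The Itgb2 difference was 3.64 without it (adjusted p = 0.0307).

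**Figure D4:**
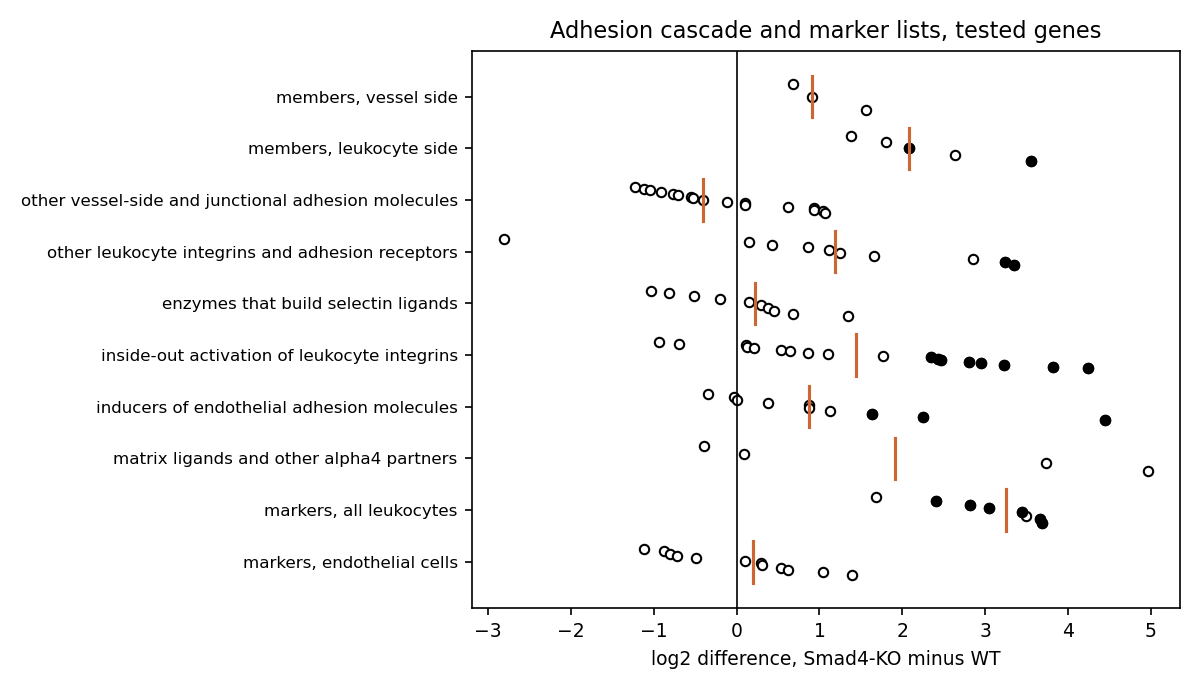
Log2 differences of the tested genes of each list (points, filled where the adjusted p was under 0.05) with the list's median (orange bar). Filled points lie in both leukocyte-side lists and in the integrin activation, inducer and general leukocyte lists and all lie above 0, while the other vessel-side molecules and the endothelial markers hold no filled point.

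Likeness to Itgb2 and Vcam1 was ranked over the 13645 tested genes, with members and predicted or unnamed genes passed over. It was the Euclidean distance between log2 values, each gene centred on its mean over the 4 arrays. Nearest to Itgb2 were Coro1a (distance 0.146), Csf2rb2 (0.216) and Dennd1c (0.256). Dennd1c, with 21.5 and 12.5 in WT against 168 and 206 in Smad4-KO, was tested only through its Smad4-KO level. Coro1a, an actin-binding protein of leukocytes, read 344 and 164 in WT against 2967 and 3137 in Smad4-KO. The nearest to Vcam1 were Nav3 (0.0424), Slc11a1 (0.0902) and Eps8 (0.1002). Slc11a1, a metal transporter of phagocytes, read 569 and 524 in WT against 1305 and 1762 in Smad4-KO (1.47 ± 0.32, adjusted p = 0.062). With 4 arrays these are descriptions of likeness and carry no test.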

How the data were processed

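Aortic RNA of 2 WT and 2 Smad4-KO pools was hybridised to single-colour Affymetrix arrays. The deposited values are linear intensity, 1 per probe set. The submitters' processing notes name Affymetrix Expression Console and RMA, but the deposited intensity values are not on a log scale and the mean without the top and bottom 2% is 500 on every array, so the method behind them is not settled here. Of 45101 probe sets, 34945 had exactly 1 symbol in the platform annotation, 932 several, 9160 none and 64 were controls; 18031 of 18193 symbols matched RefSeq (GRCm38.p6).

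Signals were taken to log2. The brightest probe set by mean over the 4 arrays stood for each gene, and genes under the 25 percent point of these means were left out. WT and Smad4-KO were compared with limma 3.58.1 (R 4.3.3), with a fit of every probe set beside it. The fit of genes, but not that of probe sets, was also run on simulated data. Named genes were all members, fixed marker genes, and in each list the genes called, or else of lowest p, by a rule; others are said to be chosen after their values were seen. The members and lists were chosen with earlier results of these data known. Alternatives were other normalizations, filters, variance settings, blocks, probe set summaries and leaving out each array. The number of arrays limits the precision, and p-values measure the spread between pools.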

Additional observations from a re-analysis of the deposited data

How the results depend on the processing

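No adhesion gene changed direction at its brightest probe set under any alternative run, and the counts of calls moved widely. The 861 genes called became 1321 with a replicate block, 0 with the labelling pair block, 0 with no filter, 1403 at an adjusted p of 0.10 and 518 with probe sets averaged per gene, and ranged from 0 to 808 when 1 array was left out (0 without WT replicate 2, 270 without WT replicate 1). The 205 probe sets called became 0 with the labelling pair block (3634 at an unadjusted p under 0.05 in limma), 0 with quantile normalization (3645), 0 with no filter (4090), 601 with the filter at the 50 percent point, 327 with signals raised to 64, 586 with trend and robust variances and 956 at an adjusted p of 0.10, and ranged from 0 to 139 without 1 array. The 2 adhesion genes called became 5 with the replicate block, the filter at the 50 percent point, trend and robust variances and an adjusted p of 0.10, then 1 with quantile normalization, median centring, array weights and the mean of probe sets, and 0 with the labelling pair block and no filter; without 1 array they numbered 0 to 2. Adhesion probe sets called rose from 0 to 1 with the filter at the 50 percent point, trend and robust variances and an adjusted p of 0.10. The causes were not tested. Replicate numbers are shared by the genotypes, but same-numbered arrays did not deviate together (correlation -0.0098), so the paired fit rests on the number, which Xist also follows. With 2 arrays per genotype, the correlation for the labelling pairs is the same value with its sign reversed, so it favours neither pairing. Of the printed differences whose range over the alternatives was taken, those of Fga, Cdh5 and the dimmer Selp probe sets turned sign. Fga ran from -0.29 to 7.76 without 1 array. Cdh5 was -0.23 with the mean of probe sets. Without 1 array Cdh5 ran from -0.094 (without Smad4-KO replicate 1) to 1.33. The Selp probe sets were 1440173_x_at (-1.39 to 0.97) and 1449906_at (-0.63 to 0.61, with 0.10 without WT replicate 2). No such range was taken for Mertk, Rap1a or the Smad4 probe set that overlapped, so the list is not complete. Mertk turned positive without Smad4-KO replicate 1 (2607 in Smad4-KO replicate 2 against a WT geometric mean of 2417). That Smad4 probe set did so too. Median centring moved the median of all genes to -0.16 and the share of calls that were higher from 78.0% to 71.0%; this share was 68.2% with the filter at the 50 percent point and 93.3% without WT replicate 1. Faint signals limit Sele, Itgam and the dimmer Itgal and Itga4 probe sets.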

Other observations

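Markers of lymphocytes and lymphatic vessels had median log2 differences of 1.52 (T cells), 1.41 (B cells, 3.03 without Smad4-KO replicate 2) and 1.32 (lymphatic endothelium), against 0.0094 for mast cells, with no test between lists. Of 5 T cell markers tested 1 rose (Cd3d), with summed signals of 619 and 409 in WT against 1534 and 1519 in Smad4-KO. Of 3 B cell markers tested 0 passed in limma and 1 had an unadjusted p under 0.05; Ms4a1, the gene of the CD20 antigen, named after its values were seen, read 180 and 95.2 in WT against 1074 and 113 in Smad4-KO, so that 1 array carried its level. Of 3 lymphatic endothelial markers tested 0 passed in limma and 2 had an unadjusted p under 0.05, with summed signals of 3186 and 2543 in WT against 6567 and 9681 in Smad4-KO.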
